A study of Mus musculus with 5 samples.

Results

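The Tox family holds 4 genes, Tox, Tox2, Tox3 and Tox4, and all 4 were found by name among the 38924 genes of the deposited table. They were followed across 5 RNA-seq libraries of splenic germinal center B cells, sorted by flow cytometry from mice 12 weeks old, at day 7 of the response to sheep red blood cells. The 3 WT libraries came from Cg1-Cre littermates, and the 2 DKO libraries from mice with relb fl/fl and nfkb2 fl/fl alleles and Cg1-Cre, so that Cre was present in both groups. Cg1-Cre acts in B cells once the IgG1 constant region is transcribed, so a cell of the sort that had not switched it on keeps both floxed genes. The series title describes the cells as eGFP+. The labels give each library as a separate sample without naming the animal, and the spread between libraries may therefore be partly technical. The family was chosen by the difference of Tox2 between the genotypes in these same libraries, and the genotype difference of its members is therefore given as a description with no p-value.

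Tox proteins are nuclear factors that carry a single HMG box, a DNA-binding fold that bends DNA. TOX is known for its roles in the development of CD4 T cells and innate lymphoid cells and in exhausted CD8 T cells, and TOX2 for its role in follicular helper T cells, the T cells that assist germinal center B cells. TOX3 is best known from breast epithelium and neurons. TOX4 is broadly expressed and is a subunit of the PTW/PP1 phosphatase complex, which acts on chromatin and on RNA polymerase II. The protein products of the targeted genes, RELB and the p52 form of Nfkb2, act together as the transcription factor of the alternative NF-κB pathway.

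Promoter sequences were listed for Tox2, Tox3 and Tox4, of which Tox2 has 5 start sites spread over 22327 bases. The windows printed here show the 250 bases before the first Tox2 start, those before a later Tox2 start inside the gene, and those before the Tox4 start, because Tox2 differed most between the genotypes and Tox4 least. Sequences are from RefSeq, build GRCm38.p6, which is another build than the authors' mm9, and all 3 lie on the + strand, at chr2:163202877-163203126, chr2:163225203-163225452 and chr14:52278896-52279145. Capitals mark the letters GGGAA, the 5′ part of many κB sites, on either strand, overlaps with other motifs not considered, and this motif was chosen after the values were seen.
Tox2, first start: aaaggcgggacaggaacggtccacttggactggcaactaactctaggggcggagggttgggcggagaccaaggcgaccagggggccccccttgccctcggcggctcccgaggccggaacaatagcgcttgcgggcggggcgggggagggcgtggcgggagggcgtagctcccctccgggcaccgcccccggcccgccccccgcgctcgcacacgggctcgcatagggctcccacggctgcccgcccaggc
Tox2, later start: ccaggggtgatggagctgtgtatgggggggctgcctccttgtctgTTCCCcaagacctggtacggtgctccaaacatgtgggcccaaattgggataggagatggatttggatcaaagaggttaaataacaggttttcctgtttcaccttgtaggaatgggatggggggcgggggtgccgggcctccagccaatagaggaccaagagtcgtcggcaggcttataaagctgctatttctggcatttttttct
Tox4: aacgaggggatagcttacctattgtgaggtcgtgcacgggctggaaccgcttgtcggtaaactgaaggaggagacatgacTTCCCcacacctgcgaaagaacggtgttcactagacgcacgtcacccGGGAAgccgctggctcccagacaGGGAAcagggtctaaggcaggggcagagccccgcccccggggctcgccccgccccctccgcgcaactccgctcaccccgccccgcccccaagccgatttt
The first Tox2 window held 0 matches, the later one 1 and the Tox4 window 3, and 56.2% of all 32851 promoter windows of this length held at least 1. The full κB consensus, found in 3.90% of all windows, was in none of the 5 Tox2 windows, nor in those of Tox3 and Tox4. The first Tox2 window was 75.2% G and C and the Tox4 window 64.8%, against a median of 52.4% over all windows. The matches describe letters in these windows and were not set against any binding data.

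Tox2 transcripts were low in both DKO libraries and present at widely different levels in the WT libraries. Tox2 stood at 1035, 177 and 226 normalized counts in WT replicates 1 to 3, which are reads divided by the authors' scaling factor for each library, and at 28.0 and 42.1 in DKO replicates 1 and 2. These values rest on 967, 172 and 235 reads in WT and on 32 and 51 reads in DKO. WT replicate 1 was 4.58 times as high as the next WT library, while the DKO libraries differed much less from each other. The groups did not overlap, and the lowest WT library was 4.21 times as high as the highest DKO library. The 95% Poisson intervals, which cover counting error only, ran from 152 to 206 normalized counts in WT replicate 2 and from 31.4 to 55.4 in DKO replicate 2. The mean was 480 ± 482 (SD, n = 3) in WT and 35.1 ± 9.97 (SD, n = 2) in DKO, so that DKO kept 7.31% of the WT mean. On the log2(normalized count + 1) scale the difference, DKO minus WT, was −3.30 ± 0.68 (SE, limma), and 11 of the 13242 tested genes had a lower one. WT replicate 1 set part of its size: without that library the difference was −2.51 ± 0.44.

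Tox, the founding member, showed the same order of libraries at a higher level. Its normalized counts were 2528, 1061 and 1179 in WT replicates 1 to 3 and 496 and 751 in DKO replicates 1 and 2, from 2361, 1028, 1227, 566 and 909 reads. As for Tox2, WT replicate 1 was the highest library and DKO replicate 1 the lowest, and the groups did not overlap. The gap between the groups was narrower than that of Tox2, with the lowest WT library 1.41 times as high as the highest DKO library. The WT mean was 1589 ± 815 (SD, n = 3) and the DKO mean 623 ± 180 (SD, n = 2), or 39.2% of WT. The log2 difference was −1.27 ± 0.37 (SE, limma), and it was −0.87 ± 0.28 without WT replicate 1. A lower difference was found in 1.61% of the tested genes. An antisense gene, Gm11802, shares 260 exon bases with Tox, or 3.42% of the Tox exons, and its own values lay between 6.73 and 39.6. The use of strand in counting is not given in the sources used here, so reads in the shared part cannot be assigned to either gene. No annotated gene overlapped Tox2.

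Tox4 was nearly level across the 5 libraries. It stood at 1559, 1651 and 1704 normalized counts for WT, with 1511 and 1653 for DKO. The groups overlapped, and the libraries of each genotype differed from one another by only 1.09 times in both. The mean was 1638 ± 73.4 (SD, n = 3) in WT and 1582 ± 101 (SD, n = 2) in DKO. The log2 difference of −0.051 ± 0.19 (SE, limma) was smaller than its error, and it turned to 0.019 when libraries were scaled to the reads outside the mitochondrial genome and to 0.014 without DKO replicate 1. Tox4 shares 933 exon bases, 13.4% of its exons, with Mettl3 and 195 with Rab2b, both on the opposite strand. Mettl3 lay between 340 and 481 normalized counts and Rab2b between 358 and 596, below Tox4 in every library.

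Tox3 was almost absent. WT replicate 1 held 2 reads, with a 95% Poisson interval of 0.242 to 7.22 reads, and the other libraries held 0. A count of 0 allows up to 3 reads, as a one-sided 95% limit, where the two-sided interval drawn in the plot of the family ends at 3.69 reads. This floor is 3.10 normalized counts in WT replicate 2 and 2.48 in DKO replicate 2. No fold is given, since both groups lay at or under this floor, and Tox3 did not reach the mean of 10 normalized counts required for testing.

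**Figure D1:**
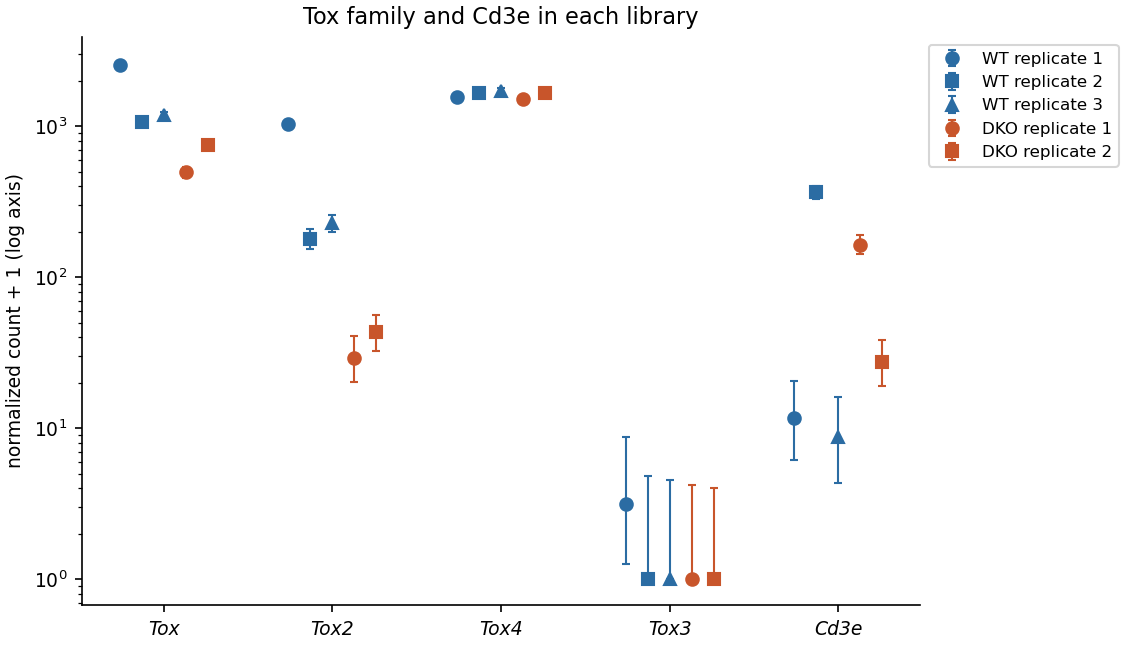
Normalized count + 1 (log axis) of the Tox family and Cd3e, 1 point per library, with 95% Poisson intervals for counting error; circles, squares and triangles stand for replicates 1, 2 and 3. Both DKO libraries lie below all WT libraries for Tox and Tox2, Tox4 stays between 1511 and 1704 normalized counts, and Cd3e is highest in WT replicate 2 and DKO replicate 1.

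Levels were set against each other per kilobase of merged exons, a rough comparison that takes no account of which isoforms were used or of amplification. By this measure Tox4 was above Tox and Tox above Tox2 in 4 of the 5 libraries. WT replicate 1 was the exception, with levels per kilobase of 224 for Tox4, 332 for Tox and 304 for Tox2. WT replicates 2 and 3 had 238 and 245 for Tox4, 139 and 155 for Tox, and 52.2 and 66.4 for Tox2, steps larger than the difference between these 2 libraries. The WT mean was 236 ± 10.6 (SD, n = 3) for Tox4, 209 ± 107 for Tox and 141 ± 142 for Tox2, and with WT replicate 1 included these neighbours did not differ beyond their spread. In DKO it was 228 ± 14.5 (SD, n = 2) for Tox4, 81.9 ± 23.7 for Tox and 10.3 ± 2.93 for Tox2, each step larger than the spread of the libraries. Tox3 came last at 0.213 in WT and 0 in DKO. Tox2 normalized counts were 41.0%, 16.7% and 19.2% of those of Tox in WT replicates 1 to 3. In DKO they were 5.65% and 5.61%, while the Tox levels of these libraries differed by 1.51 times. The DKO ratios rest on 32 and 51 Tox2 reads, with 95% Poisson intervals of 21.9 to 45.2 and 38.0 to 67.1 reads. Counting error was thus far wider than the gap between the 2 ratios, and their closeness is given without a reading.

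Of the 3 members tested, 2 were lower in DKO with no overlap between the groups, a pattern found in 11.0% of all tested genes. Limma with Benjamini-Hochberg adjustment called 0 of the 3 members at an adjusted p under 0.05, and 0 of all 13242 genes (0.0%). At an unadjusted p under 0.05 limma took 803 genes (6.06%), with 2 members, Tox and Tox2, among them, as 489 higher and 314 lower. Of those found after scaling to the reads outside the mitochondrial genome, 649 were higher and 195 lower in DKO. EdgeR, run on whole reads, called 0 genes (0.0%), with 748 (5.65%) at an unadjusted p under 0.05, again with Tox and Tox2. DESeq2 called 29 genes (0.219%), of which 13 were lower in DKO (0.0982%), and Tox2 was the 1 member among these. Since this contrast brought the family forward, these counts are given without a reading.

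**Figure D2:**
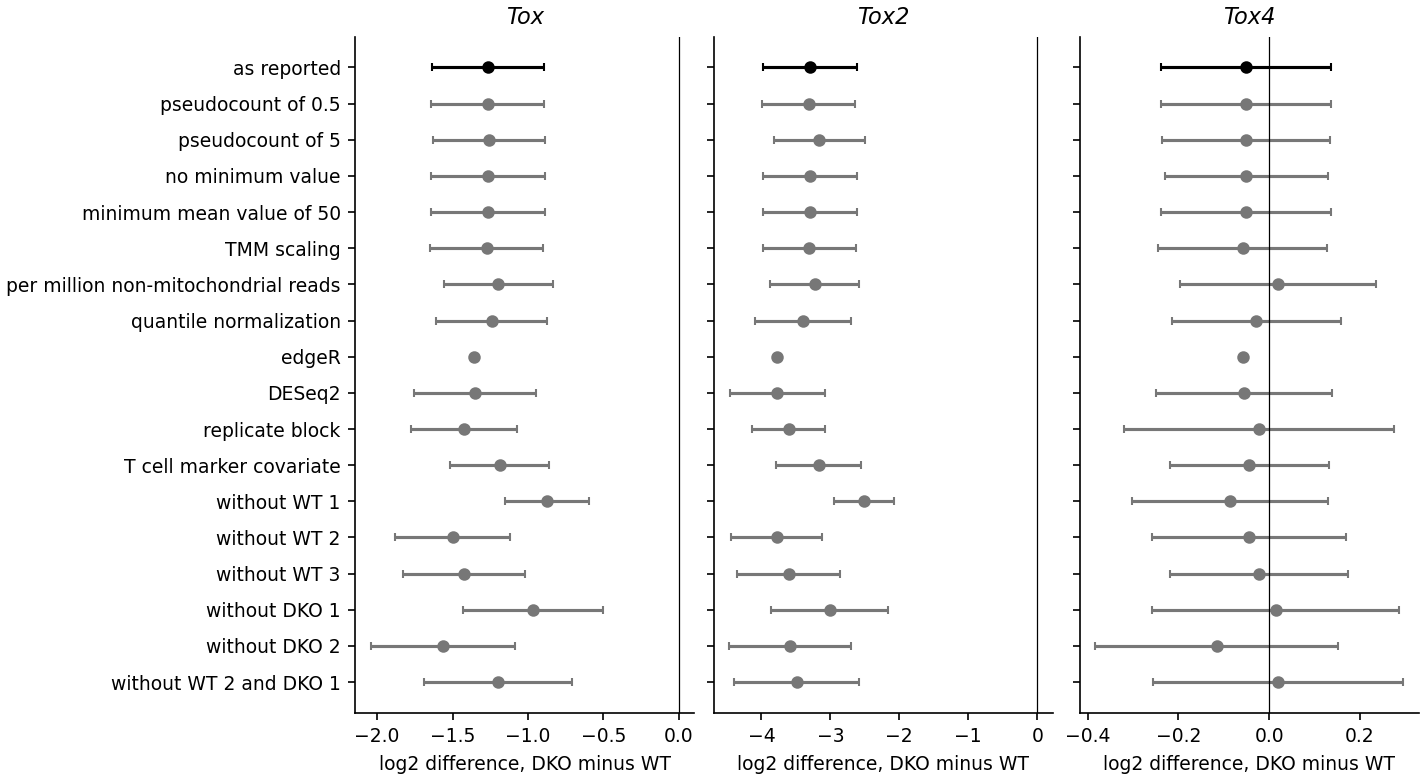
Log2 difference, DKO minus WT, of Tox, Tox2 and Tox4 as reported (black) and under each alternative setting (grey), with standard errors as bars (edgeR gives none); the 3 panels have different axis ranges. Tox and Tox2 lie below 0 at every setting shown, from −1.56 to −0.87 and from −3.78 to −2.51, and Tox4 lies on both sides of 0. For Tox and Tox2, leaving out libraries could not turn the sign, since all WT libraries lay above all DKO libraries.

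The targeted genes followed another order than Tox and Tox2 within DKO. Relb was at 136, 171 and 117 normalized counts for WT, with 56.9 and 10.7 for DKO, and Nfkb2 at 657, 601 and 445 for WT, with 298 and 73.5 for DKO. DKO replicate 2 thus held the fewest reads of both targeted genes, while DKO replicate 1 had the lowest Tox and Tox2. Counts cover whole genes, and the deleted exons were not counted apart.

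Cd3e, which encodes the epsilon chain of the T cell receptor complex and is a defining T cell transcript, varied widely and in another order. It stood at 10.7, 363 and 7.69 normalized counts in WT replicates 1 to 3 and at 163 and 26.4 in DKO, from 10, 352, 8, 186 and 32 reads. Its highest and lowest libraries, both WT, differed by 47.2 times. WT replicate 1, with 10 Cd3e reads, had the most Tox and Tox2 reads of all libraries. WT replicate 3, with 8 Cd3e reads, still had 1227 Tox reads and 235 Tox2 reads. In the other direction, DKO replicate 1 had 186 Cd3e reads and the fewest Tox2 reads, 32.

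Tox per Cd3e was 236, 2.92 and 153 in WT replicates 1 to 3 and 3.04 and 28.4 in DKO. Tox2 per Cd3e was 96.7, 0.489 and 29.4 for WT, with 0.172 and 1.59 for DKO, and its highest and lowest values differed by 562 times. Tox4 per Cd3e was 146, 4.55 and 222 for WT, with 9.27 and 62.5 for DKO. All 3 ratios were lowest in WT replicate 2 or DKO replicate 1, where Cd3e was high, and no member had its highest level in the library with the most Cd3e. Relative to DKO replicate 2, whose Cd3e level was higher than those of WT replicates 1 and 3, both of these WT libraries had more Tox and Tox2.

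**Figure D3:**
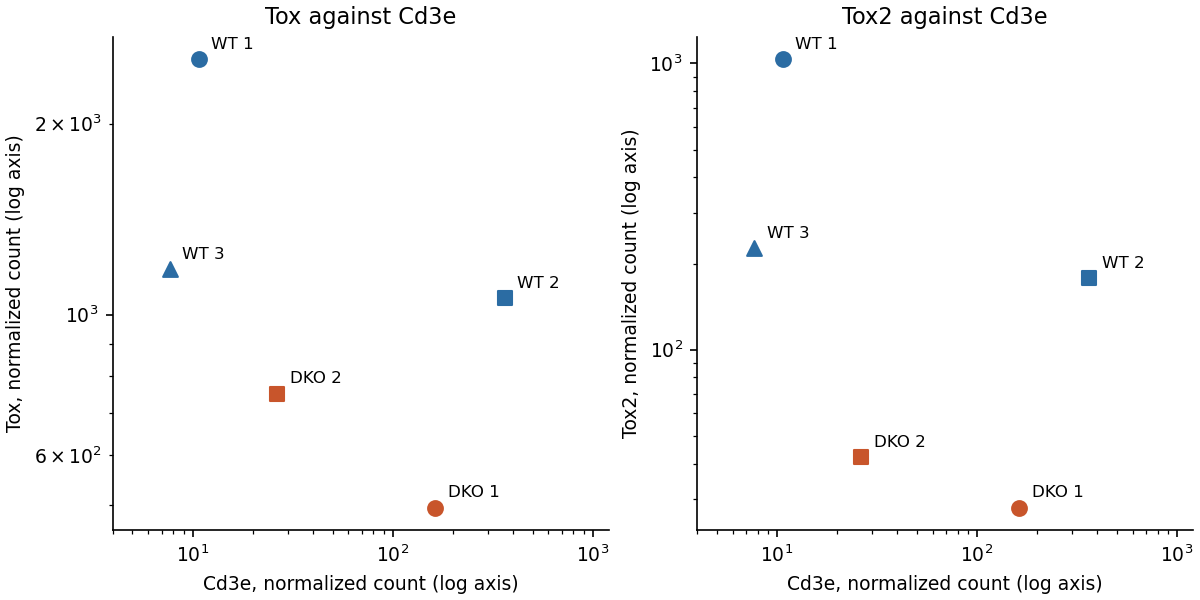
Normalized counts of Tox (left) and Tox2 (right) against Cd3e in each of the 5 libraries, both axes logarithmic, WT in blue and DKO in orange. The library with the most Tox and Tox2, WT replicate 1, has 10.7 normalized counts of Cd3e, and the one with the least, DKO replicate 1, has 163.

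Several other T cell transcripts had the pattern of Cd3e. The T cell marker list had 22 genes, all in the table, and 18 were tested. None was called by limma, 13 were higher and 5 lower in DKO, and the median log2 difference was 0.63, against 0.0013 over all genes tested. This median turned on single libraries: it was −0.32 without DKO replicate 1, −0.072 without WT replicate 3 and 0.096 without WT replicate 1, but 1.68 without WT replicate 2 and 1.41 without DKO replicate 2. Cd247, the zeta chain of the receptor complex, stood at 19.3, 96.0 and 6.73 for WT, with 60.4 and 26.4 for DKO. Cd3g stood at 12.8, 16.5 and 1.92 for WT, with 23.6 and 0 for DKO. Cd4 had 2.14, 33.0 and 11.5 for WT, with 42.0 and 22.3 for DKO, and Cd8a 12.8, 131 and 6.73 for WT, with 19.3 and 6.61 for DKO. WT replicate 2 or DKO replicate 1 was the highest library for each of these 4 genes, at levels far below those of Tox. Of the 22 genes, 4 were listed at 0 in WT replicate 1, 5 in WT replicate 3 and 3 in DKO replicate 2. These were Zap70, Themis, Trat1 and Gata3 in WT replicate 1, and Cd8b1, Zap70, Cd6, Bcl11b and Gata3 in WT replicate 3. In DKO replicate 2 they were Cd3g, Trat1 and Gata3. Gata3, Trat1 and Zap70 were also low where Cd3e was high, at 4.13, 11.3 and 18.6 in WT replicate 2 and 1.75, 2.63 and 0.876 in DKO replicate 1. Other markers were above 0 in WT replicate 1, such as Tcf7 at 56.7 and Cd5 at 27.8. The summed level of the list ran from 2395 to 4159 in WT and from 1924 to 3001 in DKO, most of it from Cd2, at 1229 to 1519, and from Lck, at 438 to 1027, in every library. Of the 18 tested markers, 2 were lower in DKO with no overlap between the groups, Lck and Cd5, a pattern found in 11.0% of all tested genes. Lck, a Src family kinase, did not follow Cd3e, at 1027, 789 and 814 for WT, with 450 and 438 for DKO. Its log2 difference was −0.97 ± 0.22 (adjusted p = 0.823, limma). Cd5 stood at 27.8, 66.0 and 21.1 for WT, with 13.1 and 16.5 for DKO.

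Follicular helper T cell genes, the setting in which TOX2 is best known, were mostly weak where they are not shared with B cells. Of 16 genes, 10 were tested and none was called, with 6 higher and 4 lower in DKO and a median log2 difference of 0.17, which was −0.099 without DKO replicate 1 and −0.026 without WT replicate 1, and otherwise 0.10 to 0.51 with a library left out. Icos, a costimulatory receptor of these cells, had 6.42, 23.7 and 1.92 normalized counts for WT, with 28.9 and 6.61 for DKO. Cd40lg, the ligand for CD40 on B cells, had 3.21, 38.2 and 17.3 for WT, with 28.0 and 16.5 for DKO. Ctla4, an inhibitory receptor, had 33.2, 52.6 and 33.6 for WT, with 29.8 and 68.6 for DKO. The transcription factor Maf had 55.7, 28.9 and 1.92 for WT, with 158 and 35.5 for DKO. The cytokine Il21 had 1.03 normalized counts in WT replicate 2 and 0 elsewhere, and Pdcd1 had at most 9.61. None of these genes had its highest value in WT replicate 1, where Tox2 was highest. Cxcr5 and Bcl6, which follicular helper T cells share with germinal center B cells, were abundant in every library, with 1986 to 3455 normalized counts of Cxcr5 and 9681 to 11763 of Bcl6.

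Innate lymphoid and myeloid transcripts were present at varied levels. Of 14 NK and innate lymphoid markers 9 were tested and none was called, with a median log2 difference of −0.50. It was 0.96 without WT replicate 2 and 0.85 without DKO replicate 2, against −0.27, −1.28 and −1.17 without WT replicate 1, WT replicate 3 and DKO replicate 1. Ncr1, an activating receptor of NK cells, was at 2.14, 67.1 and 0 for WT, with 3.50 and 1.65 for DKO. Tbx21, which encodes T-bet, was highest in WT replicate 1, at 145, 31.0 and 42.3 for WT, with 78.8 and 20.6 for DKO. The summed level of this list was 118 to 762 in WT and 94.2 to 305 in DKO. Of 12 myeloid markers 10 were tested and none was called, with a median of 0.23 and a sum of 832 to 2620 in WT and 1232 to 2058 in DKO. The median was −0.34 without DKO replicate 1 and −0.029 without WT replicate 3, and 0.50, 0.51 and 1.13 without WT replicate 1, WT replicate 2 and DKO replicate 2. Several of them were high in WT replicate 1, such as the complement gene C1qb at 135, 2.06 and 3.84 for WT, with 82.3 and 54.5 for DKO. Csf1r, the receptor for macrophage colony-stimulating factor, stood at 256, 80.5 and 28.8 for WT, with 184 and 256 for DKO, and was thus level between WT replicate 1 and DKO replicate 2. C1qa, Cd68, Emr1 and Cd14 were highest in WT replicate 1. Lyz2, S100a8 and S100a9 were instead highest in DKO replicate 1, and Itgam and Itgax in WT replicate 2. In WT replicate 1 S100a8 and S100a9 were at 0. The gene of the list with the highest mean, Mpeg1, a perforin-like protein of macrophages, was also highest in WT replicate 1, at 1018, 847 and 489 for WT, with 509 and 457 for DKO, and had a log2 difference of −0.64 ± 0.31.

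Most germinal center B cell genes were strongly expressed in all libraries. S1pr2, the receptor that confines cells to the germinal center, had 2060, 1448 and 2804 normalized counts for WT, with 1528 and 2186 for DKO. Mef2b, a germinal center factor, was listed at 0 in every library, and Gcet2 was not found under that name. Of 12 tested genes 9 were lower and 3 higher in DKO, none was called by limma, and the median log2 difference was −0.13. Rgs13, a regulator of G protein signaling in germinal center cells, had the lowest difference of this list, −1.63 ± 0.33 (adjusted p = 0.768, limma).

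Naive B cell transcripts were more abundant in the libraries with more Cd3e. The summed level of 8 such genes was 29675 in WT replicate 2 and 26410 in DKO replicate 1, against 9907 to 13110 in the other 3 libraries. Within each genotype the library rich in naive B and T cell transcripts had the lowest Tox and Tox2. In bulk RNA, fewer cells with a transcript and less of it per cell cannot be told apart. A further fit took the mean log2 level of the 18 tested T cell markers, Cd2 and Lck among them, as a covariate, leaving 2 residual degrees of freedom. The log2 difference was then −3.17 ± 0.61 (SE) for Tox2 and −1.19 ± 0.33 for Tox. With both of the libraries rich in these transcripts left out, which was chosen after the data were seen and leaves 1 DKO library, it was −3.49 and −1.20.

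The partners of Tox4 also differed little between the genotypes. The PTW/PP1 complex is built from the scaffold PNUTS, encoded by Ppp1r10, the WD-repeat protein WDR82, TOX4 and a catalytic subunit of protein phosphatase 1. All 6 genes of the list, Tox4 included, were tested, all had slightly lower means in DKO on the log2 scale, none was called, and the median difference was −0.10. Ppp1r10 stood at 1546, 1778 and 2268 for WT, with 1659 and 1755 for DKO, and Wdr82 at 1653, 2005 and 1730 for WT, with 1665 and 1792 for DKO. The log2 differences of the catalytic subunits were −0.25 ± 0.22 for Ppp1ca, −0.28 ± 0.19 for Ppp1cb and −0.097 ± 0.21 for Ppp1cc.

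Calcineurin and its NFAT factors, which induce Tox in stimulated T cells, had no member called. Of 11 genes in this list, which also holds the Nr4a factors, 10 were tested, 6 higher and 4 lower in DKO, with a median of 0.039. Ppp3ca, a catalytic subunit of calcineurin, stood at 2854, 3550 and 2306 for WT, with 3033 and 2588 for DKO. Nfatc1 stood at 3173, 4246 and 5303 for WT, with 4377 and 5075 for DKO. For neither gene was WT replicate 1 the highest or DKO replicate 1 the lowest library, and the same held for Ppp3cc and Nfatc2. By contrast, Ppp3r1 was lowest in DKO replicate 1, at 2680 normalized counts. Ppp3cb was highest in WT replicate 1, at 4240, but level with DKO replicate 2, at 4237. Rcan1, an inhibitor of calcineurin that is itself an NFAT target and was singled out after its values were seen, stood at 96.4, 182 and 93.2 for WT, with 42.0 and 68.6 for DKO (adjusted p = 0.823, limma).

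Other genes with an HMG box had differences on both sides of 0. Of 24 such genes 20 were tested, 10 were higher and 10 lower in DKO, none was called, and the median log2 difference was 0.017, or −0.15 without WT replicate 3. Their differences ran from −0.56 to 1.07, and both Tox and Tox2 lay below the lowest of them. Since the family was chosen by the difference of Tox2, this position is no separate result. Of all tested genes, 0.0831% lay below Tox2 and 1.61% below Tox. The T cell factors Tcf7 and Lef1 were highest in WT replicate 2 and DKO replicate 1, Tcf7 with 56.7, 244 and 13.5 normalized counts for WT, with 104 and 40.5 for DKO, and Lef1 with 45.0, 108 and 5.77 for WT, with 133 and 24.8 for DKO. The architectural chromatin protein Hmgb1 stood at 1727, 1679 and 1888 for WT, with 1715 and 2238 for DKO, with near-identical copies in the genome that leave its reads uncertain. Sox5 stood at 634, 261 and 529 for WT, with 613 and 536 for DKO.

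**Figure D4:**
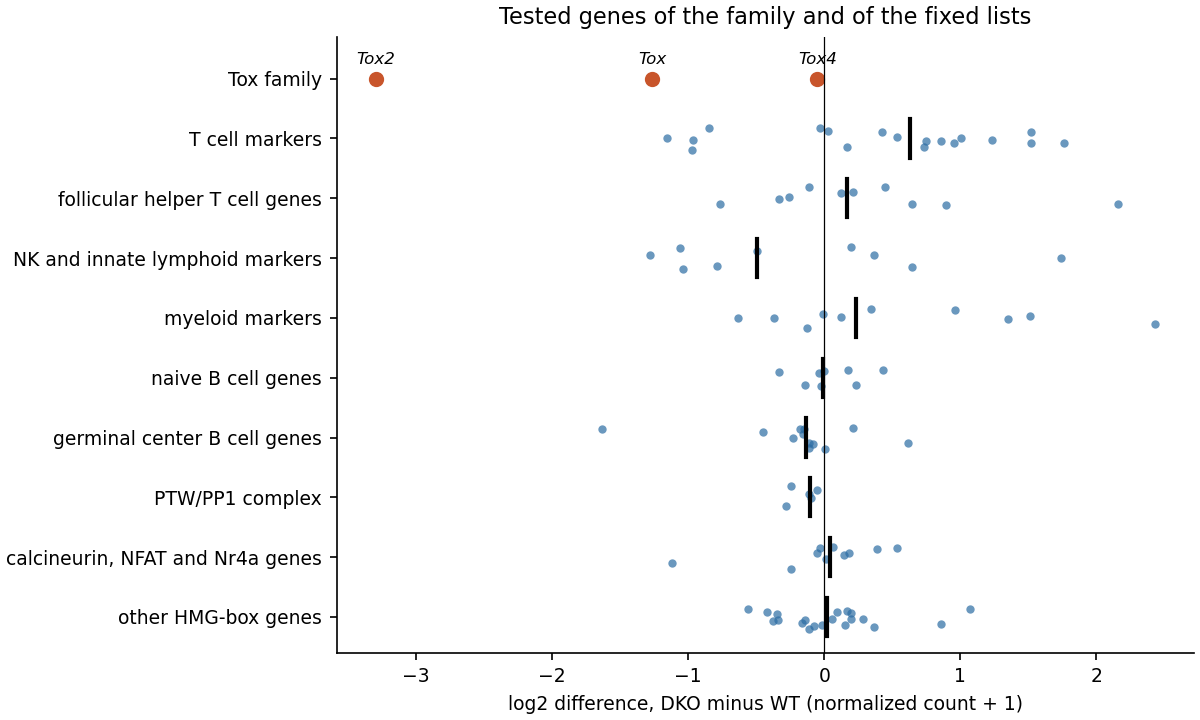
Log2 difference, DKO minus WT, of the 3 tested Tox family members (orange) and of the tested genes of 9 lists (blue), with each list's median as a black bar; height within a row is arbitrary, and the PTW/PP1 median includes Tox4. Tox2, by whose difference the family was chosen, lies at −3.30, outside the range of every list. The median of the T cell markers, 0.63, is −0.32 without DKO replicate 1.

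Genes whose levels ran closest to those of Tox and Tox2 over the 5 libraries were sought by the root mean square difference between centred log2 profiles, a measure in log2 units that is 0 for identical patterns. The 6475 other genes compared had a mean of at least 50 normalized counts and a standard deviation of at least 0.25 on the log2 scale. Nearest to Tox were Igkv6-13, a variable segment of the kappa light chain, at 0.203, Rgs13 at 0.206, the small GTPase gene Rab39b at 0.218, and the heavy chain constant region genes Ighg3 and Ighg2b at 0.220 and 0.226. Ighg3, the constant region of IgG3, stood at 11226, 4772 and 7511 normalized counts for WT, with 2474 and 4609 for DKO. Rgs13 stood at 8381, 3777 and 4727 for WT, with 1476 and 1990 for DKO. In both genes WT replicate 1 was the highest library and DKO replicate 1 the lowest, as for Tox. Constant and variable region genes have close relatives, and their reads may be split between copies.

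Nearest to Tox2 were the glutathione transferase gene Gstt1 at 0.301, Fam135a at 0.463, Ighg2c, the constant region of IgG2c, at 0.664, Evc, a component of the primary cilium, at 0.702, and Irak1bp1 at 0.880. Gstt1 stood at 315, 45.4 and 71.1 for WT, with 13.1 and 14.0 for DKO. Ighg2c stood at 11580, 922 and 1207 for WT, with 442 and 221 for DKO. In both, WT replicate 1 was far above the other WT libraries, as for Tox2. The gap of Tox2 itself between WT replicate 1 and the next WT library was exceeded in that library by 0.228% of the 10067 genes with a mean of at least 50. Tox was at 1.09 from Tox2, with 20 genes nearer, and Cd3e at 3.40, with 6454 genes nearer. Measured from Tox, the same distance put Tox2 only at rank 5284 of 6475, behind Tox4 at rank 2375. The measure takes in the size of a change as well as its order, and the log2 standard deviation was 2.06 for Tox2 against 0.871 for Tox. The ranks thus differ with size, while the 2 genes had the same order of libraries. The spread of Tox4, with a log2 standard deviation of 0.071, was under that asked of its neighbours, so that its nearest profiles, Psph, Dhrs4, Pcbp1, Snhg7 and Zdhhc3 at 0.165 to 0.172, are only genes of small spread.

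**Figure D5:**
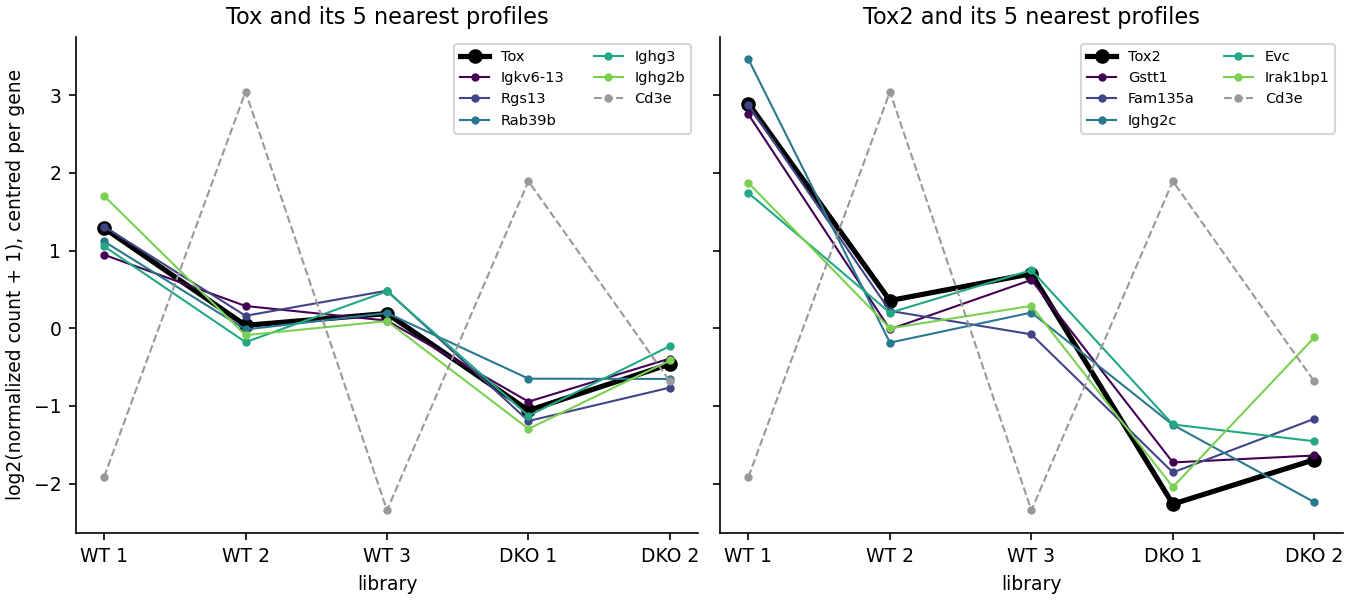
Log2(normalized count + 1) in each library, centred per gene, of Tox (left) and Tox2 (right), each with its 5 nearest genes and with Cd3e (dashed); lines join the values of a gene and imply no order of libraries. Tox and Tox2 are highest in WT replicate 1, at 1.29 and 2.89 above their means, where Cd3e is at −1.91.

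The 5 libraries held between 34.0 and 57.6 M reads, of which 15.4 to 17.7 M lay outside the mitochondrial genome, and between 17843 and 18744 genes had a read. At this depth a gene at the testing minimum of 10 normalized counts rests on about that many reads in a library.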

How the data were processed

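RNA of sorted germinal center B cells was amplified with the NuGEN Ovation system and sequenced on an Illumina instrument, per the labels' protocols. The genome build mm9, Cufflinks (2.0.2), the aligner TopHat2 (2.0.4) and CASAVA (1.8.2) are named in the submitters' processing notes. How reads were counted and scaled, and whether strand was used, is not given in the sources used here. A single table was deposited, with a normalized signal per gene and library. At least 99.9947% of values above 0 in each library were whole multiples, within 0.01, of its smallest value, so whole reads were recovered. Genes with a mean of at least 10 went into limma (3.58.1, R 4.3.3, trend on) as log2(value + 1) over all 5 libraries (two-sided, Benjamini-Hochberg, threshold 0.05). The fit was tested on simulated data. EdgeR 4.0.16 and DESeq2 1.42.0 were run on the recovered reads. Other alternatives were pseudocounts, minimum values, scalings, the replicate number as a block, a T cell covariate and leaving out libraries. Exon lengths and overlaps are from GENCODE M21, matched by symbol.

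Members and lists were chosen with earlier results of these data known. Named genes were the family, Cd3e, the targeted genes, the first tested members of each list in written order and the 5 nearest profiles with a proper gene name per member. C1qb, Mpeg1, S100a8, S100a9, Itgax, Cd14, Lck, Cd5, Zap70, Rcan1, Il21 and Pdcd1 fall outside this rule, having been chosen with their values in view. The same holds for most other list members named at 0. S1pr2, Sox5, Hmgb1 and Tbx21 lie within the rule but were picked from it with their values in view. Values of some list members are not reported here.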

Additional observations from a re-analysis of the deposited data

How the results depend on the processing

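The log2 differences of Tox and Tox2 were below 0 in 17 of 17 alternatives each, and each moved by less than the pooled spread between replicates. For both genes every WT library lay above every DKO library. Leaving out libraries or changing the pseudocount or minimum value could therefore not turn the sign, and the count is no test. With a library left out, the log2 differences ran from −1.56 to −0.87 for Tox and from −3.78 to −2.51 for Tox2. Those of Tox4 ran from −0.12 to 0.014. Tox4 was below 0 in 14 of 17 alternatives. Limma's count of called genes, 0 as reported, was between 0 and 1 with a library left out and 3 with the level of the T cell markers as a covariate, and DESeq2 gave 29. The cause was not tested. DESeq2 called 2 list members, Lck and Rgs13. A fit with the replicate number as a block had 1 residual degree of freedom, and WT replicate 3 carried no weight in its genotype difference. This fit called 36 of 13242 genes, with Tox2 and 1 list member, Rgs13, among them. Since the family was chosen by the genotype difference of Tox2, the call of Tox2 is given without a reading. The block's log2 differences were −1.42 for Tox, −3.60 for Tox2 and −0.022 for Tox4. Among replicates 1 and 2, deviations of same-numbered libraries from their group means correlated at −0.165 over 13242 genes, a value that both pairs share by construction, the numbers are not stated to mark shared animals, and replicate 3 exists only in WT. With the geometric mean of Cd3e, Cd3d, Cd3g and Cd247 (each + 1) in place of Cd3e, Tox2 per unit was 114, 2.87 and 51.0 in WT replicates 1 to 3 and 0.658 and 5.89 in DKO, again lowest in WT replicate 2 and DKO replicate 1 within their genotypes. With 2 DKO libraries, fits without a DKO replicate rest on a lone library, assumed to vary like WT. Tox3 could not be followed, since 2 reads in all 5 libraries give no difference.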
